A study of Mus musculus with 73 samples.

Results

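The milk protein genes Csn1s1, Csn3, Glycam1 and Btn1a1 were followed across 73 cDNA arrays of mouse tissues and tumors. They were chosen by gene symbol among the features of the array, and each of the 4 was represented by 1 feature, out of 6795 genes with at least 1 feature. Csn1s1 encodes alpha-s1 casein and Csn3 encodes kappa casein, the casein that coats and stabilises the milk micelle. Glycam1 encodes a mucin-like glycoprotein secreted into milk and also made by the high endothelial venules of lymph nodes. Btn1a1 encodes butyrophilin, the membrane protein that holds milk fat globules in their coat.

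Caseins are made by luminal alveolar cells of the mammary gland, and prolactin switches them on through its receptor, the kinase JAK2 and the transcription factor STAT5. The casein genes lie side by side in a cluster on chromosome 5. Milk fat is secreted separately, as droplets wrapped in cell membrane by butyrophilin, xanthine dehydrogenase and the droplet protein perilipin 2.

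On 35 arrays a tissue labelled with Cy3 was compared with a universal reference RNA labelled with Cy5. Normal prostate (n = 4) and normal seminal vesicle (n = 4) came from wild-type C57BL/6 mice, and prostate tumors (n = 5) and seminal vesicle tumors (n = 6) from TRAMP mice of that strain, in which the probasin (PB) promoter drives the SV40 T/t-antigen. Normal mammary gland (n = 4) and normal lung (n = 4) came from wild-type FVB mice, mammary tumors (n = 4) from FVB mice with a C3(1) promoter SV40 T/t-antigen transgene, and lung tumors (n = 4) from FVB mice with a CC10 promoter transgene. Strain can therefore not be told apart from location between the pair of male glands and the pair of FVB tissues. On the other 38 arrays, called direct arrays here, a mammary tumor in Cy5 was set against wild-type normal mammary gland of the same strain in Cy3. These tumors were p53-/- transplants in Balb/c (n = 5), p53fp/fp;WAP-cre (n = 4) and Brca1 Co/Co;MMTV-cre;p53 (n = 5) in C57BL6/129sv, and C3(1)/SV40 T/t-antigen (n = 5) in FVB. The remaining FVB tumors carried an oncogene under the MMTV promoter, namely MMTV-PyMT (n = 5), MMTV-ras with as many arrays, MMTV-her2/neu, likewise 5 and called neu here, and MMTV-myc with 4. The WAP and MMTV promoters used in some of these models are active in mammary epithelium, and WAP is itself a milk protein promoter. The labels used here give no age, sex or reproductive state, which matters for genes of lactation, and do not say whether samples came from separate animals, so p-values measure the spread between these samples.

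All values are log2 ratios, sample over reference or tumor over normal. Between 9244 and 9572 features held a value on a reference array and between 7042 and 7934 on a direct array. Array medians lay between -0.05 and 0.01 in the first set. In the second they lay between -0.42 and 0.66, that is, those arrays were not centred on 0 as deposited. In normal mammary gland 15 of 15 measured adipocyte markers were above the other normal tissues. In bulk tissue, fewer cells of a type and less RNA per cell cannot be told apart.

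By the RefSeq annotation of the genome build GRCm38.p6, Csn1s1 spans chr5:87666208-87682578 and Csn3 spans chr5:87925579-87932550. Glycam1 lies at chr15:103562759-103565081 and Btn1a1 at chr13:23456984-23465914. Promoter sequence was at hand for 2 of the 4 genes, and is shown because STAT5 is the known activator of the casein genes and Csn2, beta casein, is a neighbour in the same cluster. The sequences are the 250 bases before the annotated start, read 5′ to 3′ on the strand of the gene, from RefSeq GRCm38.p6, with any match to TTCNNNGAA, the palindrome that STAT factors bind, in capitals. Csn1s1 was read from chr5:87665958-87666207 on the plus strand, Glycam1 from chr15:103565082-103565331 on the minus strand and Csn2 from chr5:87699426-87699675 on the minus strand.
Csn1s1: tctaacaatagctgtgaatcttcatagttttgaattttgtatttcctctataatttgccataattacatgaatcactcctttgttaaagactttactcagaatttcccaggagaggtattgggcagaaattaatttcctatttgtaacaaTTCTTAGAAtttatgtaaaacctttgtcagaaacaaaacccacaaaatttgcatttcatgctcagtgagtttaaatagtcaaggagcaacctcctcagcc
Glycam1: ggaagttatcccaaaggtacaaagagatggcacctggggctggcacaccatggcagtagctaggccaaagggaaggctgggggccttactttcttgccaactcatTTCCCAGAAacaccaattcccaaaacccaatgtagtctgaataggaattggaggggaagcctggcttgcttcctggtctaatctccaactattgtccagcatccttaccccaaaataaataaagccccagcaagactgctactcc
Csn2: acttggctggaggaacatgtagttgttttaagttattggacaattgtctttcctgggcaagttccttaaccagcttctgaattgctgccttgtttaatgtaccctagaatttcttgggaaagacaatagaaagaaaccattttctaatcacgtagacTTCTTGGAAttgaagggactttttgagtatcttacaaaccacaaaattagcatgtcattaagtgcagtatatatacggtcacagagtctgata

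Each of these 3 promoters held 1 match, beginning at base -100 before the start in Csn1s1, at -145 in Glycam1 and at -93 in Csn2. The match read TTCTTAGAA in Csn1s1, TTCCCAGAA in Glycam1 and TTCTTGGAA in Csn2. The motif is its own reverse complement, so both strands were covered, and it was present in 7.02% of 32851 promoter windows of this length. The promoters of Csn1s2a, Wap and Lalba held no match in this window. A match is a description of the letters and was not tested as a binding site.

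The first question was where the 4 genes were expressed. Each was far higher in normal mammary gland than in the other normal tissues. Csn3 stood at 6.14, 5.52, 5.52 and 5.92 in the 4 normal mammary arrays, a mean of 5.78 ± 0.31 (SD, n = 4). Over the 27 arrays of prostate, seminal vesicle and lung, normal and tumor, it ranged from -0.47 to 1.38. Csn1s1 stood at 3.78, 4.44, 4.05 and 3.70, a mean of 3.99 ± 0.33 (SD, n = 4), against -0.29 to 1.30 on the 27 arrays outside the mammary gland.

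Glycam1 was the most variable member in normal gland. Its 4 values were 5.19, 3.39, 4.98 and 3.43, a mean of 4.25 ± 0.97 (SD, n = 4), and fell into a higher and a lower pair. Btn1a1 was at 2.52, 2.45, 2.25 and 1.69, a mean of 2.23 ± 0.37 (SD, n = 4). Outside the mammary gland Glycam1 did not exceed 0.43 and Btn1a1 did not exceed 0.17.

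Normal mammary gland exceeded the mean of the other 3 normal tissues by 5.42 ± 0.29 in Csn3 (SE; limma adjusted p = 3.405e-16), which is 42.7-fold. The differences were 4.28 ± 0.20 in Glycam1, or 19.4-fold (limma adjusted p = 1.346e-17), 3.60 ± 0.24 in Csn1s1, or 12.1-fold (1.705e-13), and 2.54 ± 0.11 in Btn1a1, or 5.83-fold (6.026e-18). All 4 members passed, where 27.2% of 6754 genes tested were higher in this comparison. For Csn3, Glycam1 and Btn1a1 every normal mammary array lay above every array of the other 7 tissue groups, as did 3.26% of 6771 genes. Csn1s1 missed that separation through 1 mammary tumor array.

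**Figure D1:**
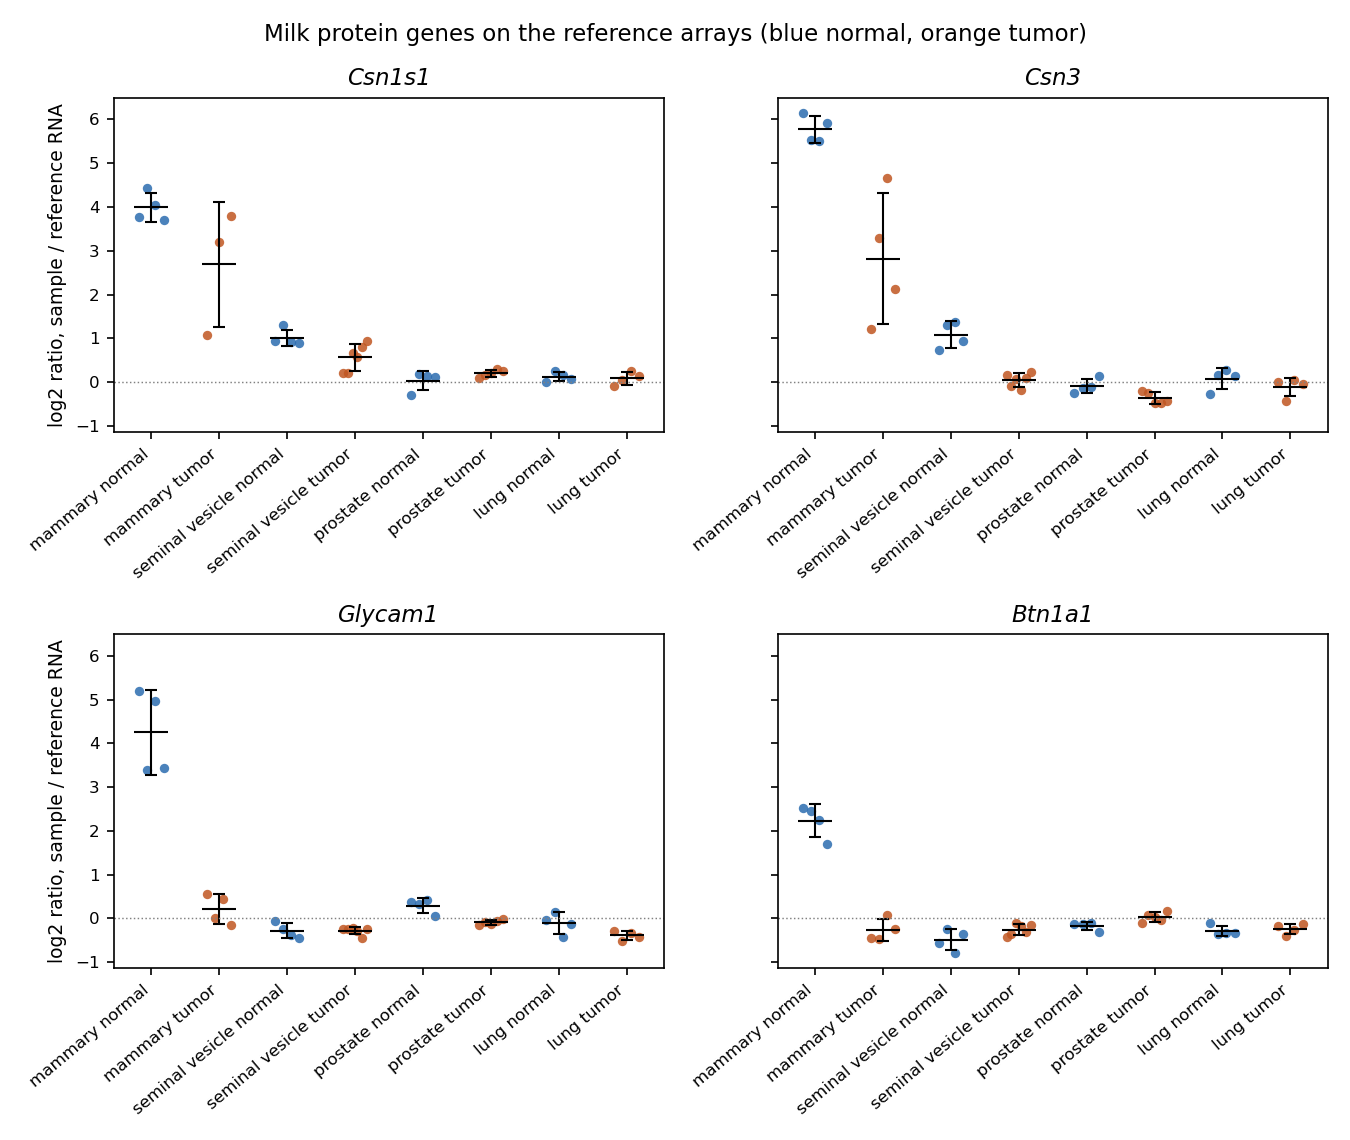
Log2 ratio of each milk protein gene over reference RNA (y axis) in the 8 tissue groups (x axis), with 1 point per array and bars for mean ± SD. Normal mammary gland is highest in all 4 genes, the mammary tumors are spread widely in Csn1s1 and Csn3 and lie near 0 in Glycam1 and Btn1a1.

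Between mammary tumor and normal mammary gland the members separated into 2 patterns. Glycam1 and Btn1a1 fell to values near those of the tissues outside the mammary gland, while the casein means stayed above those tissues with a wide spread. In tumor replicate 1, however, Csn1s1 (1.07) and Csn3 (1.21) lay within the range of normal seminal vesicle. Glycam1 was 0.56, 0.00, 0.45 and -0.16 in the 4 tumor arrays, far below the lowest normal value of 3.39. It fell by 4.03 ± 0.24 on the log2 scale, or 16.4-fold (limma adjusted p = 2.487e-14).

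Btn1a1 was -0.46, -0.47, 0.07 and -0.24 in the tumors and fell by 2.50 ± 0.14, or 5.65-fold (limma adjusted p = 2.949e-15). No tumor array approached the lowest normal array. Against the mean of the other 3 tumors, mammary tumors differed by 0.47 ± 0.19 in Glycam1 (limma adjusted p = 0.05895) and by -0.11 ± 0.11 in Btn1a1 (0.4414), and neither passed. In the order of group means, mammary tumor sat among the other tissues in both genes, with no passing difference to its neighbours.

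Csn3 fell as well, by 2.95 ± 0.35, or 7.74-fold (limma adjusted p = 3.915e-08). Its tumor values of 1.21, 3.28, 4.66 and 2.14 lay below all normal values but covered a range far wider than that of the normal arrays. Csn1s1 had 3 tumor values, 1.07, 3.20 and 3.80, the array of replicate 4 holding none, and the highest of them lay within the normal range. It fell by 1.30 ± 0.32, or 2.47-fold (limma adjusted p = 0.001486).

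The fall of Csn1s1 rested on 1 array. Without tumor replicate 1 it was -0.49 ± 0.20 (limma adjusted p = 0.05082), after quantile normalization -0.50 ± 0.31 (0.2114), and with only the 2 mammary groups in the model -1.30 ± 0.53 (0.09362). Over its alternatives the adjusted p ranged from 1.153e-05 to 0.2114, while the changes of Csn3, Glycam1 and Btn1a1 passed in all alternatives run. All 4 members passed as lower in the mammary comparison, where 20.1% of 6771 genes did. For Csn3, Glycam1 and Btn1a1 all tumor arrays lay below all normal arrays, as they did for 17.9% of genes.

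The casein level that remained in mammary tumors was above that of other tumors. Mammary tumors exceeded the mean of prostate, seminal vesicle and lung tumors by 2.96 ± 0.28 in Csn3 (limma adjusted p = 6.613e-10) and by 2.40 ± 0.26 in Csn1s1 (1.64e-08), where 19.7% of 6772 genes were higher. Csn2, which is regulated with the other caseins in the gland, followed the same course. It was 4.67, 5.04, 5.00 and 4.08 in normal gland and 0.84, 2.55 and 4.73 in the 3 tumor arrays with a value. It fell by 1.99 ± 0.40 (limma adjusted p = 0.0001802).

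The same tumor arrays were high in all 3 caseins. Replicate 3 was highest, replicate 2 next and replicate 1 lowest, in Csn1s1, Csn3 and Csn2 alike. The mean of 15 adipocyte markers was 1.90 in replicate 3, 1.37 in replicate 2, 0.67 in replicate 1 and 0.47 in replicate 4, against 3.35 to 3.73 in normal gland. The mean of 15 skeletal muscle markers was 1.93, 1.25, 0.65 and 0.12 in the same order of arrays. Csn3 was higher in replicate 4 than in replicate 1, the reverse of the adipocyte mean. Csn1s2a, another casein, was 0.62, 0.83, 2.42 and 0.19 in replicates 1, 2, 3 and 4, the same order as the adipocyte mean. The part of adipocyte or muscle tissue in the casein values was not tested. Btn1a1 was also highest in replicate 3, at 0.07, but lowest in replicate 2. Glycam1 was highest in replicate 1.

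**Figure D2:**
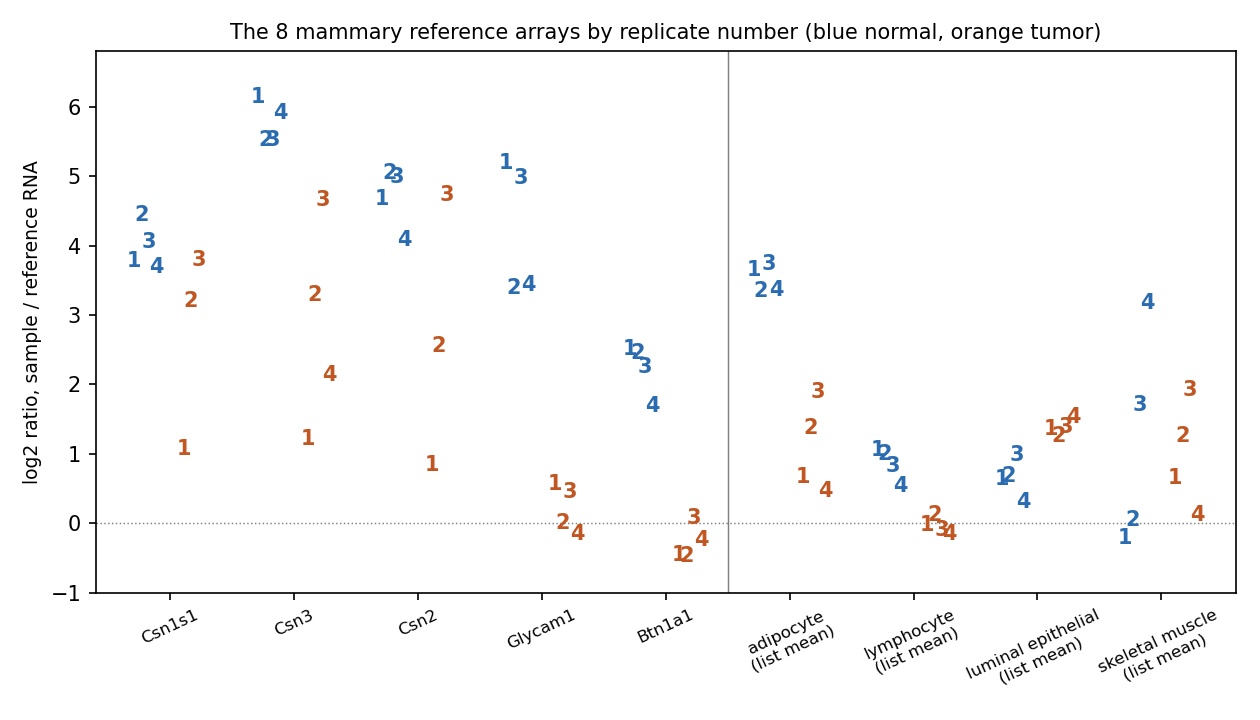
Log2 ratio over reference RNA (y axis) on the 8 mammary reference arrays, each drawn as its replicate number, for 5 milk genes and for the mean of 4 marker lists (x axis). Tumor replicate 3 is highest in Csn1s1, Csn3, Csn2 and the adipocyte mean, while all tumor arrays lie near 0 in Glycam1 and Btn1a1.

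Other cell types also differed between the mammary groups. All 15 adipocyte markers fell, with a median of -2.30 against -0.02 over all genes. Of 17 markers of lymph node and lymphocytes 15 fell, and their mean was between 0.53 and 1.06 in normal gland and between -0.16 and 0.11 in tumors. Glycam1 is also made by lymph node vessels, and the part of lymph node RNA in its fall was not tested on these arrays. Of 14 luminal epithelial markers 8 rose, 6 did not pass and none fell, led by Epcam at 2.32 ± 0.30 and Cldn7 at 1.20 ± 0.19. Over all 6771 genes 16.6% rose and 20.1% fell. These 8 epithelial markers were higher in the samples in which the milk genes were lower, and the part of epithelial content in the milk genes was not tested. None of 15 skeletal muscle markers passed by limma, 1 of them with an unadjusted value under 0.05 (lowest and highest list means -0.22 and 3.17 in normal gland), and of 11 basal and myoepithelial markers 2 rose and 5 fell.

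At the other sites few members passed. In prostate and lung no member passed by limma, where 61.4% of 6767 and 36.5% of 6774 genes did, and none had an unadjusted p under 0.05. In seminal vesicle Csn3 fell by 1.04 ± 0.32, or 2.05-fold (limma adjusted p = 0.009606), where 20.2% of 6767 genes were lower. Its normal values were 0.74, 1.29, 1.38 and 0.93, and the 6 tumor arrays ran from -0.18 to 0.23, with no overlap, as for 16.5% of genes. Normal seminal vesicle was the only tissue outside the mammary gland in which Csn3 stood above its next neighbour in the order of groups, exceeding normal lung by 1.01 ± 0.35 (limma adjusted p = 0.01525). Csn1s1 was also highest there among the tissues outside the mammary gland, at 0.93, 1.30, 0.91 and 0.90, and seminal vesicle tumors ranged from 0.20 to 0.95. Its difference of -0.44 ± 0.27 between tumor and normal did not pass (limma adjusted p = 0.1914). The call for Csn3 was lost after quantile normalization at -0.85 ± 0.33 (limma adjusted p = 0.05476), and no run of array numbers in the labels held both seminal vesicle groups. With that run as a factor the value was -1.83 ± 0.84 (limma adjusted p = 0.1374).

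The mammary change was compared with the change at each other site. The difference in change for Glycam1 was -3.66 ± 0.33 against prostate, -4.04 ± 0.33 against seminal vesicle and -3.75 ± 0.34 against lung. For Btn1a1 the differences in change were -2.70 ± 0.19, -2.74 ± 0.19 and -2.54 ± 0.19, and for Csn3 -2.68 ± 0.48, -1.92 ± 0.47 and -2.76 ± 0.50, all of which passed. Csn1s1 passed against prostate (-1.47 ± 0.42) and lung (-1.26 ± 0.44) but not against seminal vesicle, where the difference was -0.86 ± 0.42 (limma adjusted p = 0.09676). Of all genes, 25.5%, 22.5% and 12% had a lower change in mammary gland than in prostate, seminal vesicle and lung, in that order. The change differed among the 4 sites in all 4 members by a moderated F test, as it did in 74.2% of genes.

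Milk proteins and fat globule genes beyond the 4 members mostly fell too. The list was drawn up with earlier results of these data known and includes the members. Of its 18 measured genes 14 fell, all 4 members among them, and 2 rose, with a median of -1.0. Of all genes 20.1% fell and 16.6% rose. Plin2, the droplet protein, fell by 1.23 ± 0.14 and Xdh, the partner of butyrophilin at the globule surface, by 0.52 ± 0.15. Wap, the whey acidic protein, rose by 0.33 ± 0.13 (limma adjusted p = 0.04192). Its values were 0.19, 0.04, 0.07 and 0.27 in normal gland and 0.51, 0.85, 0.42 and 0.09 in tumors, which overlapped. All 4 normal mammary values lay below those of normal prostate and normal seminal vesicle. This feature thus showed no raised level in normal gland, and its small rise was not read as a change of a milk gene. Saa3, a serum amyloid protein of milk and inflammation, rose by 1.44 ± 0.34.

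Of 18 measured genes of prolactin and STAT5 signalling, the pathway that activates caseins, 4 rose and 5 fell, shares near the 16.6% and 20.1% of all genes. Stat5a fell by 0.67 ± 0.25 (limma adjusted p = 0.02947). Elf5, an ETS factor of alveolar cells, was -0.43 ± 0.17 and did not pass (0.05134). Cav1, caveolin 1, an inhibitor of prolactin signalling that adipocytes also make, fell by 2.84 ± 0.22, the growth hormone receptor Ghr by 1.79 ± 0.15 and Tnfsf11, the RANK ligand, by 1.39 ± 0.30, while the feedback inhibitor Socs3 rose by 0.66 ± 0.14. None of 11 genes of lactose synthesis and milk transport passed in either direction by limma, and 1 of them, the folate receptor Folr1, had an unadjusted p under 0.05.

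**Figure D3:**
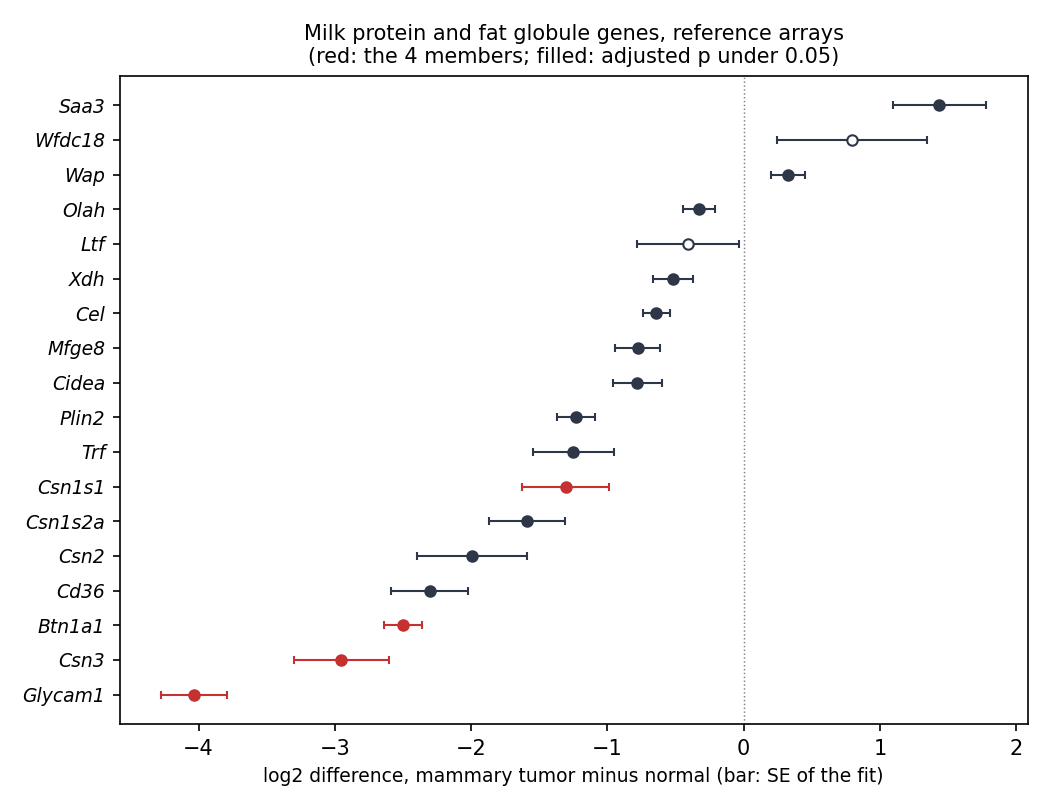
Log2 difference between mammary tumor and normal mammary gland on the reference arrays (x axis) with the SE of the fit, for the 18 measured genes of milk proteins and the fat globule (y axis). Glycam1, Csn3 and Btn1a1 lie farthest to the left, Saa3 and Wap are the filled points to the right of 0, and Wfdc18 and Ltf are open because they did not pass.

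The direct arrays asked how tumors of 8 models compared with normal gland. Csn3 held no value there, so 3 members were followed. The members went different ways. Csn1s1 was below 0 on 30 of 38 arrays, with a median of -2.26, Glycam1 on 35 of 37 with a median of -1.85, and Btn1a1 was above 0 on 30 of 37 with a median of 0.93. The test against 0 leaves out the spread of normal gland, and a dye difference of a feature cannot be told apart from a tumor change, because dyes were not swapped.

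Csn1s1 was lowest in C3(1) and ras tumors. In C3(1) tumors its values were -4.24, -2.72, -4.64, -3.83 and -3.52, a mean 13.8-fold below normal gland (-3.79 ± 0.48, limma adjusted p = 1.045e-07). In ras tumors they were -2.41, -3.49, -3.60, -4.62 and -4.48, a mean 13.2-fold below (-3.72 ± 0.48, 7.402e-07). All arrays of both models were far below 0, and the models differed from each other by only -0.07 ± 0.69 (limma adjusted p = 0.9693). PyMT tumors had -3.91, -2.76, -2.30, -2.67 and -1.43 (-2.62 ± 0.48, limma adjusted p = 0.0001346), and Brca1 Co/Co tumors -1.27, -3.17, -3.49, -1.0 and -1.17 (-2.02 ± 0.48, 0.0008357).

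In neu tumors Csn1s1 was above normal gland. Its values were 2.26, 2.60, 3.32, 1.70 and 2.43, a mean of 2.46 ± 0.48 (SE), or 5.52-fold (limma adjusted p = 0.0003418). All 5 neu arrays lay above every array of the other 7 models, whose highest value was 1.5, a separation shown by 2 of 5768 genes (0.0347%). Neu exceeded the mean of the other models by 4.67 ± 0.52 (limma adjusted p = 3.285e-07), a difference in that direction reached by 0.572% of 5768 genes. In the order of model means neu was followed by myc, lower by 3.41 ± 0.73 (limma adjusted p = 0.04922), and no neighbours further down passed.

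The remaining 3 models were mixed from array to array. In p53-/- transplants Csn1s1 was -2.22, -0.28, -2.20, 1.12 and -2.04, in p53fp/fp tumors -2.33, -1.44, 1.5 and -2.62, and in myc tumors -2.68, 1.25, -1.75 and -0.60. Each of these models had 1 array above 0 and the rest below, and none passed against 0. The means were -1.12 ± 0.48 (limma adjusted p = 0.1243), -1.22 ± 0.54 (0.1017) and -0.94 ± 0.54 (0.218). Without the 1 array above 0 each passed, at -1.68 without p53-/- replicate 4, -2.13 without p53fp/fp replicate 3 and -1.67 without myc replicate 2. The array left out was the highest of its model, so the mean had to become lower. These values show the weight of 1 array and are no evidence of a fall in these models.

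Over the 8 models Csn1s1 thus passed as lower in 4 and as higher in 1. Of all genes, 4.33% were lower in C3(1), 2.98% in ras, 8.5% in PyMT and 12.1% in Brca1 Co/Co tumors, and 9.38% were higher in neu tumors. In the models without a call, 8.43% were lower in p53-/- transplants, 11.2% in p53fp/fp and 2.72% in myc tumors. The C3(1) mean minus that of the other models was -2.48 ± 0.52 (limma adjusted p = 0.0009418) and for ras it was -2.40 ± 0.52 (0.01264), where 0.78% and 0.052% of genes were lower. The 8 models differed by a moderated F test (F = 16.8, limma adjusted p = 2.47e-07), as they did in 42.5% of genes.

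Beta casein did not rise with alpha-s1 casein in neu tumors. Csn2 was -0.95, -1.28, 0.41, -2.43 and -2.09 there, a mean of -1.27 ± 0.54 (limma adjusted p = 0.09787), while Csn1s1 was above 0 on the same 5 arrays. Csn1s2a, another casein, lay on both sides of 0 in neu tumors, at -0.24, 0.85, -0.63, 0.11 and 0.67. In C3(1) tumors Csn2 fell by 4.03 ± 0.54, close to the value of Csn1s1. Myc replicate 2, the 1 myc array with Csn1s1 above 0, had Csn2 at 3.40, and p53-/- replicate 4 had Csn2 at 2.31. In p53fp/fp replicate 3, where Csn1s1 was 1.5, Csn2 was -1.27.

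Of 15 measured genes of the milk list 7 rose and 2 fell in neu tumors, where 9.38% of all genes rose and 8.17% fell. The members are counted there, Csn1s1 and Btn1a1 among those that rose and Glycam1 among those that fell. Against the mean of the other models only 2 of the 15 passed, Csn1s1 and Plin2 (1.12 ± 0.22, limma adjusted p = 0.003181). The mean of the 12 list genes other than the members was higher in myc (0.75) than in neu tumors (0.42), a difference that was not tested. Single arrays ran from 0.33 to 1.61 in myc and from 0.165 to 0.66 in neu tumors, so the ranges overlapped. Wfdc18, a whey-type protease inhibitor, rose by 4.12 ± 0.54, Saa3 by 1.59 ± 0.29, Xdh by 0.90 ± 0.20 and Plin2 by 0.77 ± 0.20. Of 15 prolactin and STAT5 genes 6 rose and 2 fell in neu tumors, against the same shares of all genes, and those that rose included Stat5a at 0.83 ± 0.18, the luminal regulator Gata3 at 1.99 ± 0.23 and the STAT5 target Socs2 at 1.55 ± 0.27. Stat5a in neu exceeded the mean of the other models by 0.77 ± 0.19 (limma adjusted p = 0.02958). Gata3 exceeded it by 1.42 ± 0.25 (0.0007837), while Socs2 (0.86 ± 0.28, 0.1199) and Wfdc18 (1.73 ± 0.58, 0.1279) did not pass. Of these genes, Wfdc18, Gata3 and Socs2 were above normal gland in models without a rise of Csn1s1 too. Wfdc18 rose by 3.81 ± 0.61 in myc, 2.92 ± 0.54 in ras and 2.50 ± 0.54 in PyMT tumors, Gata3 by 1.68 ± 0.26 in myc and 1.41 ± 0.23 in PyMT tumors, and Socs2 by 1.96 ± 0.30 in myc tumors.

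Glycam1 had a mean below 0 in all 8 models and passed as lower in 6. The values in p53fp/fp tumors were -1.73, -2.68, -1.35 and -3.83 (-2.40 ± 0.37), and in ras tumors -2.24, -2.14, -1.13, -2.58 and -1.85 (-1.99 ± 0.33). Neu tumors, in which Csn1s1 rose, had Glycam1 at -2.14, -2.85, -2.0, -1.86 and -0.79 (-1.93 ± 0.33). C3(1) tumors had -1.95, -2.01, -1.90, -2.25 and -0.65 (-1.75 ± 0.33, limma adjusted p = 5.361e-05). Brca1 Co/Co tumors stood at -1.70 ± 0.33 and PyMT tumors, with 4 values, at -1.5 ± 0.37.

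The models without a passing fall of Glycam1 were myc and the p53-/- transplants. Myc tumors had 0.74, -0.31, -0.85 and -0.70 (-0.28 ± 0.37, limma adjusted p = 0.6368), and p53-/- transplants -1.33, -0.54, -0.12, 0.42 and -0.08 (-0.33 ± 0.33, 0.5669), the model in which no member passed, where 14.4% of genes did in either direction. The p53-/- mean was 1.32 ± 0.36 above that of the other models (limma adjusted p = 0.02528), where 0.26% of genes were higher. The myc mean was 1.37 ± 0.39 above and did not pass (0.06555). Of all genes, 11.2% were lower than normal gland in p53fp/fp, 12.1% in Brca1 Co/Co, 4.33% in C3(1), 8.17% in neu, 2.98% in ras and 8.5% in PyMT tumors.

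Most lymph node and lymphocyte markers did not pass on the direct arrays. Of 15 such markers 5 fell and 1 rose in p53fp/fp tumors, the model with the lowest Glycam1 mean, where 11.2% of all genes were lower. In PyMT tumors 4 fell and 1 rose, where 8.5% were lower. In C3(1) tumors 3 rose and 1 fell, where 41.8% of genes were higher and 4.33% lower, and in Brca1 Co/Co tumors 3 rose and 1 fell as well. In each of neu, myc and ras tumors 2 fell, with 1 rising in myc and 1 in ras, and in p53-/- transplants 1 fell. Of all genes, 12.1% were lower in Brca1 Co/Co, 8.17% in neu, 2.72% in myc, 2.98% in ras and 8.43% in p53-/- tumors. Those higher made up 34.9% in Brca1 Co/Co, 20.8% in myc and 17.2% in ras tumors. The mean of the list lay between -0.25 in neu and 0.08 in C3(1) tumors. Adipocyte markers fell in every model, 9 to 11 of 11. Of 15 skeletal muscle markers 10 to 15 fell, with model means of the list between -3.83 and -1.83, that is, they were higher in normal gland. Their part in the values of the milk genes was not tested. The adipocyte list mean was -1.70 in myc and -2.25 in p53-/- tumors, in which Glycam1 did not pass. In the 6 models with a fall of Glycam1 it was -3.21 in Brca1 Co/Co, -3.03 in p53fp/fp, -2.11 in neu, -1.94 in ras, -1.85 in C3(1) and -1.81 in PyMT tumors.

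Btn1a1 was above normal gland in most models. PyMT tumors had 1.10, 1.68, 1.79, 1.06 and 2.42 (1.61 ± 0.31, limma adjusted p = 0.0002093), and C3(1) tumors 1.58, 1.02, 2.35, 0.29 and 2.55 (1.56 ± 0.31, 9.471e-05). All 10 arrays were above 0. Myc tumors had 1.32, 2.92, 0.93 and 0.28 (1.37 ± 0.34, limma adjusted p = 0.003862) and neu tumors 1.36, 0.70, 2.27, 0.94 and 0.64 (1.18 ± 0.31, 0.005749). The call was lost in myc without replicate 2, at 0.85 ± 0.36 (limma adjusted p = 0.107), and in neu without replicate 3, at 0.91 ± 0.33 (0.06851).

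In Brca1 Co/Co tumors Btn1a1 had 3 high values and 2 slightly below 0, namely 1.48, 1.57, -0.16, 1.35 and -0.17 (0.81 ± 0.31, limma adjusted p = 0.02905). This call did not hold in 7 of 12 alternatives, among them the centring of each array on its median (0.62 ± 0.31, limma adjusted p = 0.095) and leaving out replicate 1, 2 or 4. The p53-/- transplants (0.63 ± 0.31) and ras tumors (0.37 ± 0.31) did not pass. In p53fp/fp tumors the 3 values were -0.76, -0.25 and -1.21 (-0.74 ± 0.40, limma adjusted p = 0.1852), all below 0. That model minus the mean of the others was -1.82 ± 0.42 (limma adjusted p = 0.006914), where 6.61% of genes were lower. Genes passing as higher made up 12.7% in PyMT, 41.8% in C3(1), 20.8% in myc, 9.38% in neu and 34.9% in Brca1 Co/Co tumors, and 5.96% in p53-/-, 17.2% in ras and 11.5% in p53fp/fp tumors, where Btn1a1 did not pass, so that in C3(1) and Brca1 Co/Co tumors a rise was common among all genes.

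**Figure D4:**
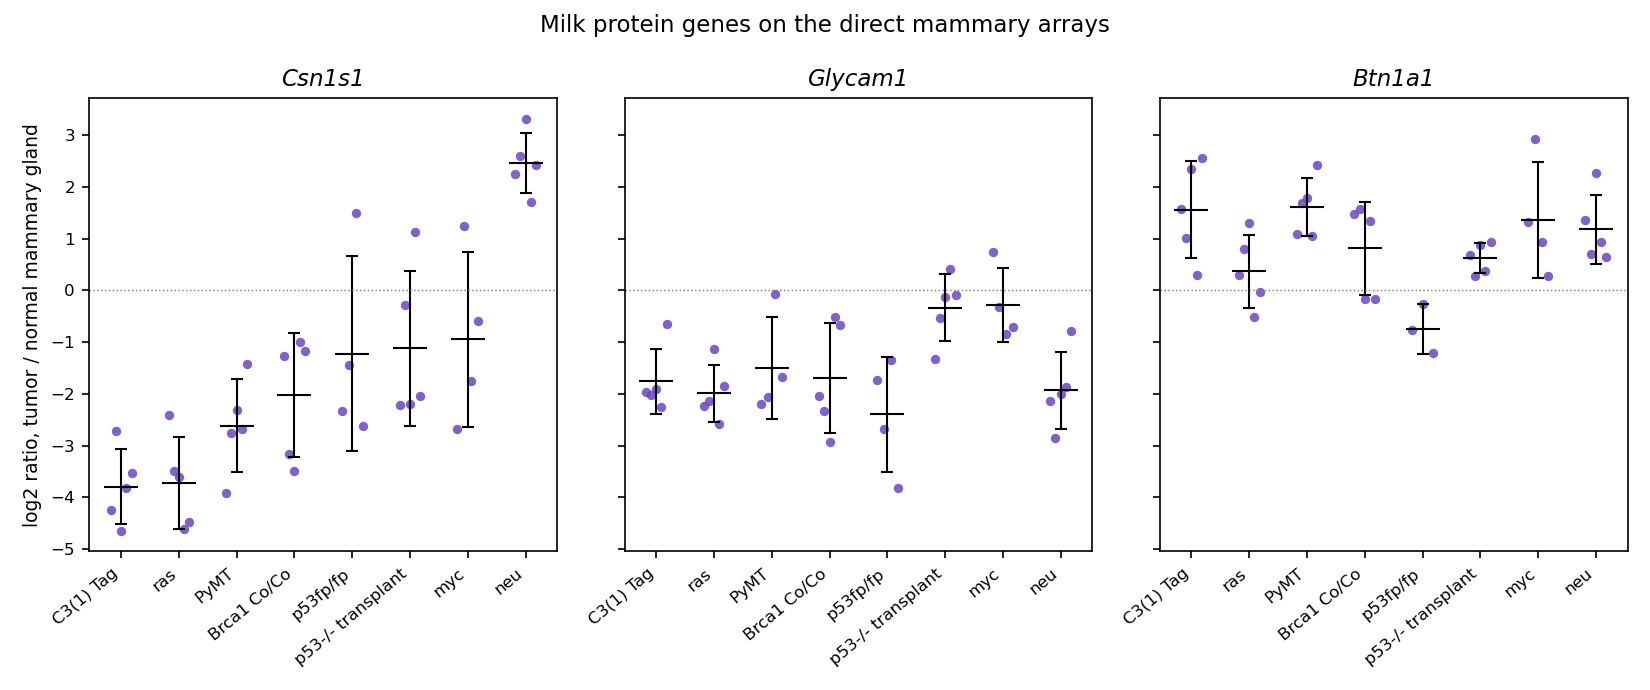
Log2 ratio of tumor over normal mammary gland (y axis) for 3 milk protein genes in the 8 directly measured models (x axis), with 1 point per array and bars for mean ± SD. Csn1s1 is above 0 on all neu arrays and far below in C3(1) and ras, Glycam1 is below 0 on 35 of 37 arrays, and Btn1a1 is above 0 on 30 of 37.

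C3(1) tumors were measured on both kinds of array, and the members did not behave alike. Csn1s1 was lower on both, by 1.30 ± 0.32 on the reference arrays and by 3.79 ± 0.48 on the direct arrays. Glycam1 was lower on both, by 4.03 ± 0.24 and 1.75 ± 0.33. Btn1a1 changed sign, from -2.50 ± 0.14 on the reference arrays to 1.56 ± 0.31 on the direct arrays, and after centring of each array the latter was 1.23 and still passed (limma adjusted p = 0.001897). Of 1077 genes that passed on both kinds of array, 23.4% had opposite signs, and 248 of these 252 were lower on the reference arrays and higher on the direct arrays. The direct C3(1) values had a median of 0.36 over all genes, and 41.8% of genes passed as higher against 4.33% as lower. Centring lowered the share of passing genes that were higher from 90.6 to 53.5%, and the signs were not counted again after it. On the reference arrays both tissues were in Cy3, while on the direct arrays the tumor was in Cy5 and normal gland in Cy3, and the labels do not say whether the same normal gland RNA was used. What separates the values of Btn1a1 was not tested.

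**Figure D5:**
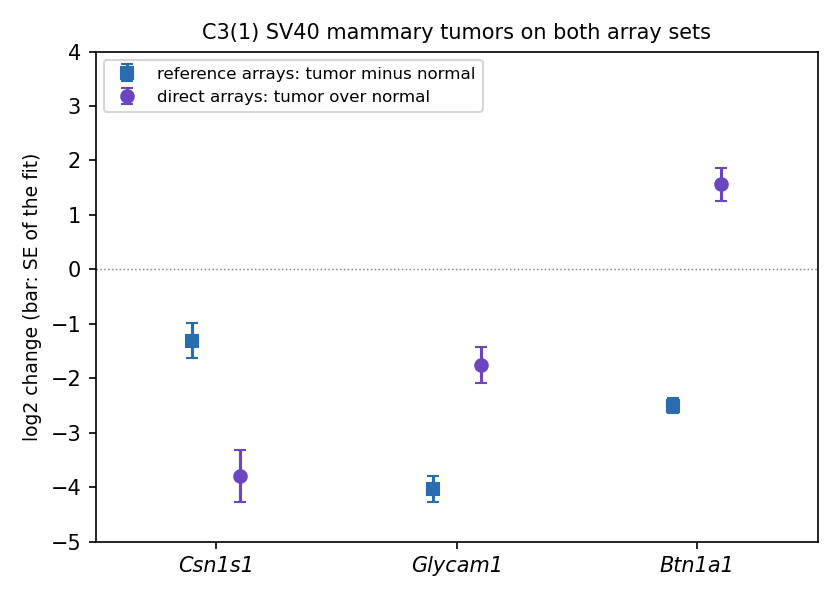
Log2 change of 3 milk protein genes (x axis) in C3(1) SV40 T/t-antigen mammary tumors against normal gland (y axis, with the SE of the fit), on the reference arrays (squares) and on the direct arrays (circles). Csn1s1 and Glycam1 are below 0 on both, and Btn1a1 is at -2.50 on the first and at 1.56 on the second.

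The order of group means showed how far each gene set the groups apart. Of 28 pairs of tissue groups 18 differed in Csn3, 17 in Csn1s1 and 10 each in Glycam1 and Btn1a1. In the pairs of tumor and normal tissue of the same site, between 36.5% (lung) and 61.4% (prostate) of all genes differed. In Csn3 the order ran from normal mammary gland through mammary tumor (2.82) and normal seminal vesicle (1.09) to the other groups, with each of these first 3 steps passing. In Glycam1 and Btn1a1 only the first step, from normal mammary gland to the next group, passed. Of 28 pairs of models on the direct arrays 12 differed in Csn1s1, 5 in Btn1a1 and 4 in Glycam1, and no neighbours in the order differed in the latter genes. Passing pairs were not counted for the other genes in either set, so these counts do not set the members apart from them.

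Across the reference arrays the caseins resembled each other and Glycam1 resembled Btn1a1. The genes most like Csn1s1 over 34 arrays were Csn3 (Pearson r = 0.974), Csn2 (0.967) and Csn1s2a (0.929), out of 6736 genes with values on at least 90% of arrays. Those most like Csn3 were Csn2 (0.974), Csn1s1 and Csn1s2a (0.929). Glycam1 was most like Btn1a1 (0.952), Sncg, a synuclein also found in fat (0.940), and the lectin gene Cd209g (0.940). Btn1a1 was most like Glycam1, the sugar pathway enzyme Tkt (0.934) and the fatty acid synthase Fasn (0.928). These arrays share tissues, and normal mammary gland stands apart in all of these genes, so the coefficients describe that contrast.

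On the direct arrays the coefficients were lower. Csn1s1 was again close to Csn2, here first in rank (Pearson r = 0.702 over 38 arrays), followed by the cartilage collagen Col9a1 (0.669) and Igfals (0.615). Glycam1 was most like Nnat (0.770 over 37 arrays), the sodium pump regulator Fxyd1 (0.71) and the splicing factor Rbm39 (0.706). Btn1a1 was most like Shroom3, a regulator of epithelial cell shape (0.776), Nat8f2 (0.728) and Sema6b (0.725). Among the members themselves r was 0.182 for Csn1s1 and Glycam1, 0.0896 for Csn1s1 and Btn1a1 and 0.297 for Glycam1 and Btn1a1, where the reference arrays had given 0.791, 0.763 and 0.952.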

How the data were processed

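Values are log2 ratios of 9596 features on 73 two-colour cDNA arrays, deposited by the authors as a processed table. Image analysis, background correction and normalization are not given in the sources used here. The base was checked with the interaction rule of the series text: read as log2 it gave 2638 features, the number stated there. Direction followed the dyes in the labels, and the direct C3(1) arrays correlated with the mammary change of the reference arrays over 5749 genes (Pearson r = 0.499, Spearman rho = 0.379, genes not being independent replicates).

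Features were named through the probe table of the series (7486 with 1 symbol, 483 with several, 1627 with none) and RefSeq gene IDs, and features of 1 gene were averaged. limma 3.58.1 in R 4.3.3 was fitted to 8 group means on the reference arrays and 8 model means on the direct arrays. A gene needed 3 values in each group and was called where its p, adjusted over all genes by Benjamini and Hochberg, was under 0.05. Adjusted p-values in the text come from limma. Directly measured models were tested against 0. The procedure was tested on simulated data.

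The members and gene lists were chosen with earlier results of these data known. Named were the 4 members, up to 4 genes of smallest p per list, their regulators and partners, and the 3 genes of highest Pearson r. Csn1s2a, Cldn7, Wfdc18, Saa3, Gata3, Socs2 and Folr1, where outside that rule, were chosen after their values were seen. Replicate numbers did not pair the samples: 2 of 16 pairs correlated above 0.1, from -0.24 to 0.22. Runs of array numbers (a gap of 20 starts another) are not called a batch by the labels. Precision is limited by the number of arrays. Alternatives covered scaling, filter, spread estimate, samples fitted, replicate block, array numbers and replicates left out.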

Additional observations from a re-analysis of the deposited data

Results flagged for a closer look

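Among 54 groups of 4 to 6 arrays, 6 had an array that stood apart from the rest of its group, and chance gives about 1 in 20. Csn1s1 was -0.29 in normal prostate replicate 1 and 1.30 in normal seminal vesicle replicate 2. Glycam1 was -0.45 in seminal vesicle tumor replicate 5 and -0.65 in direct C3(1) replicate 5. Btn1a1 was -0.32 in normal prostate replicate 4 and -0.11 in normal lung replicate 1. Normal prostate held 2 of these 6 arrays, and the other 4 lay in 4 different groups.

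The tumor change differed among the 4 sites of the reference arrays in each member by a moderated F of limma. F was 97.4 for Btn1a1 (adjusted p = 7.63e-14), 64.6 for Glycam1 (7.459e-12), 13.6 for Csn3 (2.536e-05) and 4.57 for Csn1s1 (0.01448). The tumor over normal ratio differed among the 8 models of the direct arrays with F of 16.8 for Csn1s1 (limma adjusted p = 2.47e-07), 4.79 for Glycam1 (0.004162) and 4.48 for Btn1a1 (0.005823).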

How the results depend on the processing

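No member changed its called direction in any alternative. Over the alternatives for single members, apart from the random block, 622 values kept their call or lack of one, 14 lost a call and 8 gained one. Csn1s1 in mammary tumors lost its call in 3 alternatives, with values from -1.86 to -0.49 over all of them. For Btn1a1 in Brca1 Co/Co tumors the number of members called higher went from 1 to 0 with median centring, with only that model in the fit, with quantile normalization and with the run of array numbers as a random block, an alternative chosen after seeing the data (0.80, limma adjusted p = 0.1008). In p53-/- transplants it went from 0 to 1 with only that model fitted and with quantile normalization. The counts of members here stand without the share of all genes under each alternative, so they do not set the members apart. In prostate, where the main fit called 32.2% of 6767 genes lower, members called lower went from 0 to 2 with only the groups compared. In seminal vesicle they went from 1 to 2 with only the groups compared, and to 0 with quantile normalization and under the rule of the series text (2-fold, unmoderated p of 0.001). Leaving out single replicates gave 0 to 1 members higher in Brca1 Co/Co and in myc, 1 to 2 higher in neu, 0 to 1 lower in myc and in p53-/- and 1 to 2 lower in p53fp/fp tumors. With the replicate number as a block Csn1s1 in mammary tumors was -1.31 (limma adjusted p = 0.0005844), and that block changed no call of a member. The causes were not tested. Within the first run of array numbers the mammary changes were -1.40 in Csn1s1, -2.68 in Csn3, -4.18 in Glycam1 and -2.69 in Btn1a1. Csn1s1 could not be fitted with the run as a factor, and features with several symbols held no member.

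Centring moved the median of all genes from 0.24 to 0.06 in Brca1 Co/Co, 0.36 to 0.02 in C3(1), 0.21 to -0.02 in myc and 0.18 to 0.00 in ras tumors. It moved the share of passing genes that were higher from 74.3 to 55.3%, 90.6 to 53.5%, 88.4 to 53% and 85.2 to 52.8% in that order, and from 50.5 to 61.9% in p53fp/fp tumors. Under quantile normalization the shares were 66.9% in C3(1), 72.4% in myc, 71.5% in ras, 67.1% in neu (from 53.5%), 68.8% in p53-/- (from 41.4%) and 72.3% in p53fp/fp tumors. All genes passing in the mammary comparison numbered 2485, and 496 under the rule of the series text.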

Other observations

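Wap and Elf5 were not highest in the mammary gland. Normal seminal vesicle exceeded normal mammary gland by 1.03 ± 0.13 in Wap (limma adjusted p = 2.343e-08) and by 1.10 ± 0.17 in Elf5 (1.846e-06), where 25.4% of 6764 genes were higher. Stat5a was 0.48 ± 0.25 higher there and did not pass (0.08997). Neither Wap nor Elf5 held values on the direct arrays.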
